A study of Mus musculus with 18 samples.

Results

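Oxidative phosphorylation is carried out by 4 large enzyme complexes of the inner mitochondrial membrane that hold subunits encoded both in the nucleus and in mitochondrial DNA (complexes I, III, IV and V), together with complex II, whose subunits are encoded in the nucleus. The genes described here were chosen by symbol, as the nuclear genes of complexes I, III, IV and V with the names Ndufa, Ndufb, Ndufc, Ndufs, Ndufv, Uqcr, Cyc1, Cox5 to Cox8 and Atp5. Of the 31787 symbols in the count table, 88 met these names, and 85 of them had at least 10 raw counts in at least 3 of the 18 libraries. Complex I gave 45 genes, all of them kept; complex III gave 9, all kept; complex IV gave 15, of which 14 were kept; and complex V gave 19, of which 17 were kept. Cox7b2, Atp5l2 and Atp5l-ps1 did not reach the minimum count and are not tested below. By role, 76 of the 85 are counted as subunits, among them Ndufa4, its relative Ndufa4l2 and the supercomplex factor Cox7a2l; the other 9 are the 7 Ndufaf assembly factors of complex I and the genes Atp5s and Atp5sl, which are related to complex V by name. Ndufa4 was first named as a complex I subunit, but its product is found with complex IV.

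RNA from whole mouse kidney was sequenced in 6 groups of 3 kidneys. The knockout groups were kidneys after unilateral ureteral obstruction (UUO), in which a blocked ureter drives tubular injury and fibrosis. Twist cKO UUO and Snail cKO UUO kidneys carried floxed alleles of the named gene with Cdh5-CreERT2, a tamoxifen-inducible Cre expressed in endothelial cells, and Myc cKO UUO kidneys carried floxed Myc with GGT-Cre, which is active in proximal tubule cells. WT UUO kidneys were obstructed without a knockout, contralateral kidneys were the unobstructed partners of obstructed ones, and healthy kidneys came from mice with no obstruction. Of the 3 mice in the WT UUO group, 2 carried Cre but no floxed allele and 1 carried floxed Twist but no Cre, and the contralateral group had the same makeup. The 3 healthy mice had floxed Twist and no Cre. Mice were 12 weeks old, or 11 to 12 weeks in the Myc group. The Twist line mixed the C57BL6, 129sv and Balb/c backgrounds, whereas the Snail and Myc lines mixed C57BL6 and Balb/c, so strain and knockout cannot be told apart for the Snail and Myc groups. How long the ureter was blocked, and the tamoxifen schedule, are not given here. The labels do not tie kidneys to animals, and the p-values reflect only how these samples vary.

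Complex I takes electrons from NADH and complex II from succinate; both pass them to ubiquinone, from where complex III moves them to cytochrome c and complex IV to oxygen. Complexes I, III and IV pump protons, and complex V, the ATP synthase, lets the protons flow back and makes ATP. The catalytic cores of complexes I, III and IV are encoded partly by mitochondrial DNA, and the nuclear genes supply the remaining core subunits and a large set of accessory subunits. Proximal tubule cells, which make up much of the kidney cortex, are rich in mitochondria and rely on this pathway to power reabsorption.

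Raw counts were scaled by edgeR's TMM factors (trimmed mean of M-values), and levels are given as CPM, counts scaled to a fixed library total, after that scaling. A gene was called changed where the quasi-likelihood test of edgeR gave an adjusted p under 0.05 (two-sided, Benjamini-Hochberg over all 21107 genes kept). Fold changes are on the log2 scale, with the standard error (SE) after them, every adjusted p below comes from this test, and SD is over the 3 libraries of a group. Library totals were 52.6 to 73.9 M counts in the obstructed groups and 78.1 to 91.3 M in the unobstructed groups. The 2 mitochondrial ribosomal RNAs took 19.2 to 20.3% of all counts in WT UUO kidneys, 23.7 to 34.9% in the knockout kidneys and 44.6 to 50.3% in contralateral and healthy kidneys. Ddx3y, from the Y chromosome, exceeded Xist in 2 of 3 libraries of the Snail and of the Myc group and in 1 of 3 of each other group, so the sexes were mixed. The Twist1 level fell in Twist cKO UUO kidneys, with 0.378, 0.596 and 0.307 CPM against 2.13, 4.49 and 1.14 CPM in WT UUO kidneys (log2 fold change -2.59 ± 0.49 SE, adjusted p = 0.0173). Snai1 was at 1.98, 1.69 and 2.28 CPM in Snail cKO UUO kidneys and 3.21, 3.45 and 2.4 CPM in WT UUO kidneys (-0.61 ± 0.38, adjusted p = 0.487), and Myc was at 18.8, 19.8 and 10.8 CPM in Myc cKO UUO kidneys and 22.1, 23.8 and 21.8 CPM in WT UUO kidneys (-0.45 ± 0.23, adjusted p = 0.217). Both knockouts were aimed at 1 cell type of a mixed tissue, and neither loss was called, so the Snail and Myc groups below are the libraries labelled as such. In 3 groups 1 library stood apart in the pathway: Myc cKO UUO replicate 3 was the highest obstructed library, Twist cKO UUO replicate 3 lay at the WT UUO level, and WT UUO replicate 1 was the lowest library of all.

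Obstruction was first examined in the absence of a knockout. In WT UUO kidneys, 82 of the 85 genes fell relative to healthy kidneys, 1 rose and 2 were not called; over all genes tested, 27.1% were called lower and 29.1% higher. The median log2 fold change was -1.73, or 3.33-fold lower, against a median of 0.05 over all genes. Of the 82, 77 fell at least 2-fold and 13 at least 4-fold. In the 82 genes that fell, every WT UUO library lay below every healthy library, a separation that 29.7% of all genes showed in that direction. Leaving out any 1 library of the WT UUO or healthy group gave 83 to 84 genes called and medians of -1.88 to -1.63. Summed over complex I, the level was 1210 ± 94.4 CPM in WT UUO kidneys and 3962 ± 738.4 CPM in healthy kidneys (SD, n = 3 each), and over complex V it was 1618 ± 144.0 CPM and 5624 ± 905.5 CPM in the same order.

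The size of this fall depends on the scale. The TMM factors were 1.346 to 1.366 in WT UUO and 0.5542 to 0.7585 in healthy libraries. Scaled to all counts without the TMM factors, all log2 fold changes of WT UUO over healthy move up by 1.08, the median over all genes becomes 1.13 and the median over the 85 genes becomes -0.65. On that scale 76 of the 85 genes stayed below zero; Atp5g2, Cox7a2l, Ndufa7, Ndufaf2, Ndufaf5, Ndufaf7, Ndufc2 and Cox6b2 changed sign, and Ndufa4l2 was higher on both scales. As a share of the counts from genes outside the mitochondrial genome, the genes held 0.591 to 0.696% in WT UUO kidneys and 1.55 to 1.89% in healthy kidneys. Values below are relative to the bulk of genes, on the TMM scale.

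**Figure D1:**
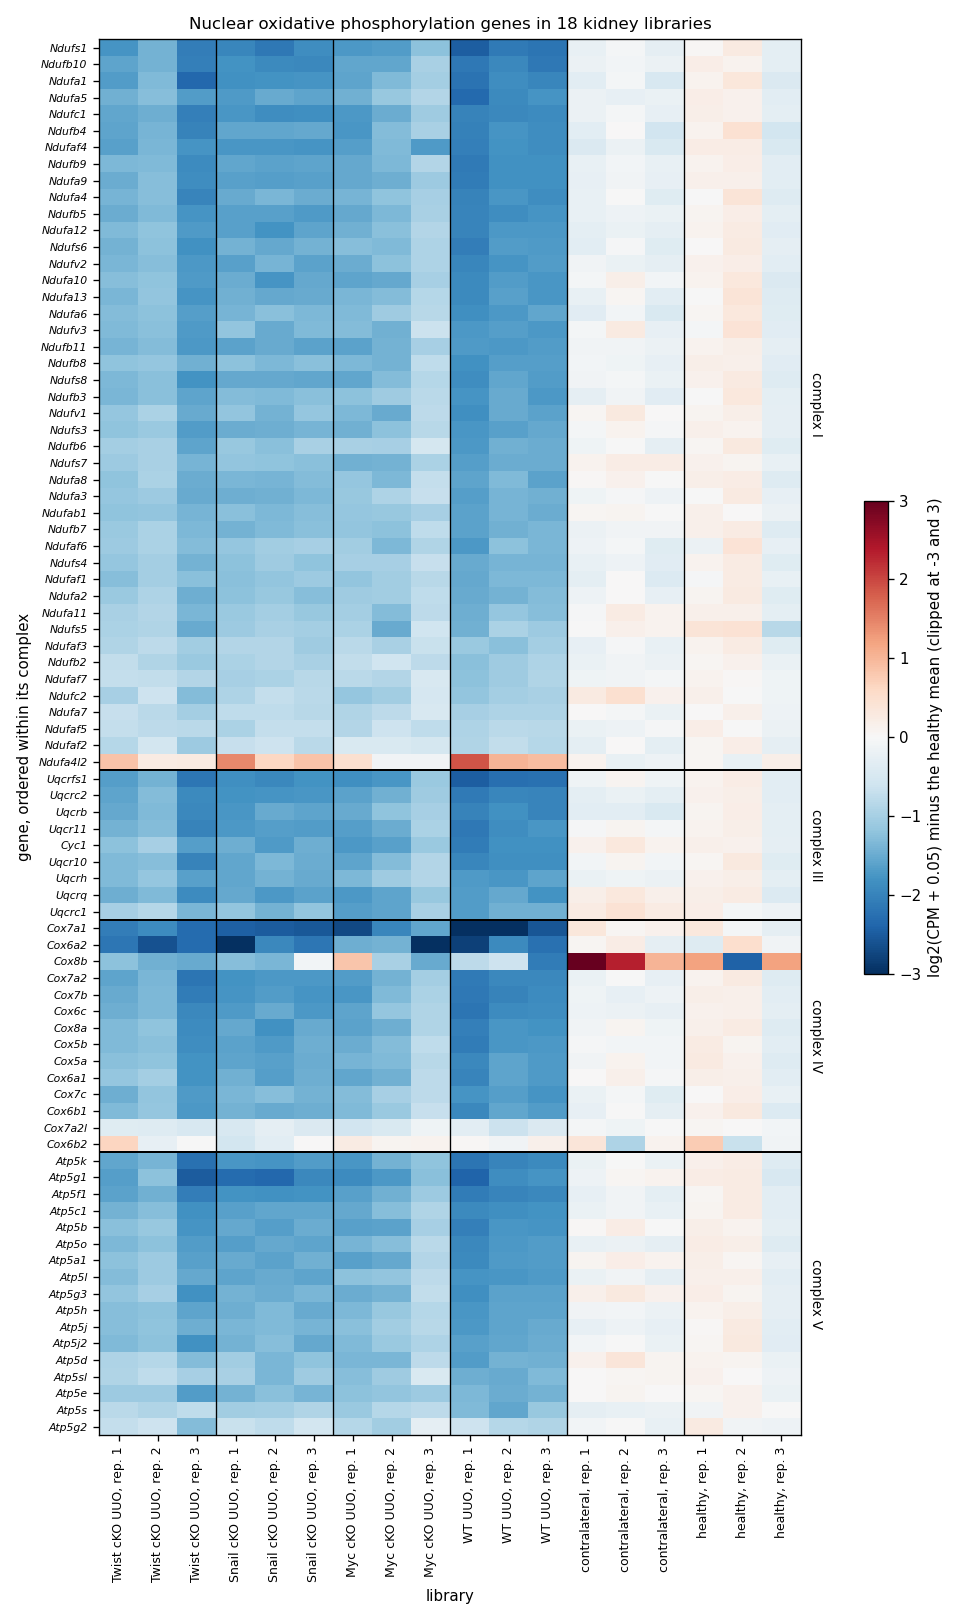
Level of 84 of the 85 genes in each of the 18 libraries, as log2(CPM + 0.05) relative to the mean of the 3 healthy libraries, with genes in rows by complex, ordered by the fold change of WT UUO over healthy, and libraries in columns by group. The obstructed libraries lie below the unobstructed ones in nearly every row, with medians of -1.83 to -1.64 in WT UUO and -1.69 to -0.87 in the knockout libraries, and Ndufa4l2 runs the other way.

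Complex I is the entry point for NADH electrons. Its 7 nuclear core subunits, which carry the flavin and iron-sulfur clusters, all fell (median -1.66), as did all 29 accessory subunits (median -1.72, from -2.09 to -0.96). Ndufs1, which carries iron-sulfur clusters of the electron-input arm, had 53.1, 67.6 and 64.7 CPM in WT UUO kidneys, against 302.5, 356.5 and 242.0 CPM in healthy kidneys. The healthy libraries were all several times above the WT UUO libraries, and the log2 fold change was -2.28 ± 0.19 (adjusted p = 1.98e-07). Ndufv1, which binds NADH, fell by 1.66 ± 0.19 on the log2 scale (adjusted p = 3.31e-06). Among accessory subunits the falls ran from Ndufb10 (-2.09 ± 0.18, adjusted p = 2.85e-07), with 23.6, 27.4 and 23.5 CPM in WT UUO and 119.5, 112.4 and 85.8 CPM in healthy kidneys, to Ndufa7 (-0.96 ± 0.11, adjusted p = 4.04e-06), with 29.9, 31.6 and 31.4 CPM against 60.3, 66.8 and 53.6 CPM. The WT UUO values of Ndufa7 were close together and still below each healthy value.

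The assembly factors of complex I, which help build the enzyme and are not part of it, fell in 7 of 7 cases, with a median of -1.15 that was smaller in size than that of the subunits. Ndufaf4 fell most among them (-1.93 ± 0.17, adjusted p = 3.54e-07), with 15.5, 18.6 and 17.7 CPM in WT UUO kidneys and 75.6, 75.8 and 46.9 CPM in healthy kidneys. Ndufaf2 fell least (-0.85 ± 0.15, adjusted p = 0.000165), with 5.14, 5.74 and 5.32 CPM against 10.1, 11.2 and 8.0 CPM, and Ndufaf2, Ndufaf5 and Ndufaf7 were the 3 factors whose sign changed when counts were scaled to the library total.

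Complex III passes electrons from ubiquinol to cytochrome c, and its 9 genes all fell with a median of -1.92. Uqcrfs1, the Rieske iron-sulfur protein, had the largest fall of the 9, with 38.3, 44.5 and 45.2 CPM in WT UUO kidneys, against 228.1, 247.9 and 171.9 CPM in healthy kidneys (-2.34 ± 0.21, adjusted p = 3.41e-07). Cyc1, the cytochrome c1 subunit, had 29.0, 35.3 and 35.5 CPM against 138.1, 135.2 and 103.1 CPM (-1.92 ± 0.19, adjusted p = 7.89e-07). For both genes the WT UUO libraries lay close together and far below the lowest healthy library. The core proteins, which form the matrix-facing part, split between Uqcrc2 (-2.03 ± 0.17, adjusted p = 1.93e-07) and Uqcrc1 (-1.52 ± 0.17, adjusted p = 2.83e-06). The 5 small subunits all fell, from -1.95 to -1.69, with Uqcrh, the hinge protein, at -1.69 ± 0.14 (adjusted p = 2.57e-07).

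Complex IV hands the electrons to oxygen. Its 9 generally expressed subunits fell within a narrow span, from -2.03 to -1.75, with a median of -1.86. Cox6c had 72.0, 88.2 and 89.3 CPM in WT UUO kidneys, against 358.1, 366.6 and 267.4 CPM in healthy kidneys (-1.99 ± 0.18, adjusted p = 4.9e-07). Cox5a, which together with the Cox4 subunit is among the first to join the mitochondrially encoded core, fell by 1.76 ± 0.2 (adjusted p = 2.48e-06), and Cox7c fell by 1.75 ± 0.15 (adjusted p = 2.57e-07). The 2 members of this complex that were not called, Cox8b and Cox6b2, are isoforms of restricted expression and are described below with their partners.

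Complex V makes ATP. Its 5 F1 subunits, which form the catalytic head and its central shaft, all fell (median -1.77), as did 7 of 7 stalk or membrane subunits (median -1.76). Atp5b, the catalytic beta subunit, had 445.9, 554.6 and 548.9 CPM in WT UUO kidneys, against 2100, 2003 and 1529 CPM in healthy kidneys (-1.86 ± 0.2, adjusted p = 1.76e-06). Atp5a1, the alpha subunit, fell by 1.77 ± 0.19 (adjusted p = 1.76e-06) and Atp5c1, the gamma subunit of the shaft, by 1.87 ± 0.17 (adjusted p = 4.62e-07). Atp5k, the e subunit of the membrane part, had the largest fall of the complex (-2.04 ± 0.2, adjusted p = 1.01e-06), with 22.3, 25.8 and 27.0 CPM against 112.5, 119.0 and 77.8 CPM. For Atp5b and Atp5k the gap between the groups was wider than the spread inside either one.

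**Figure D2:**
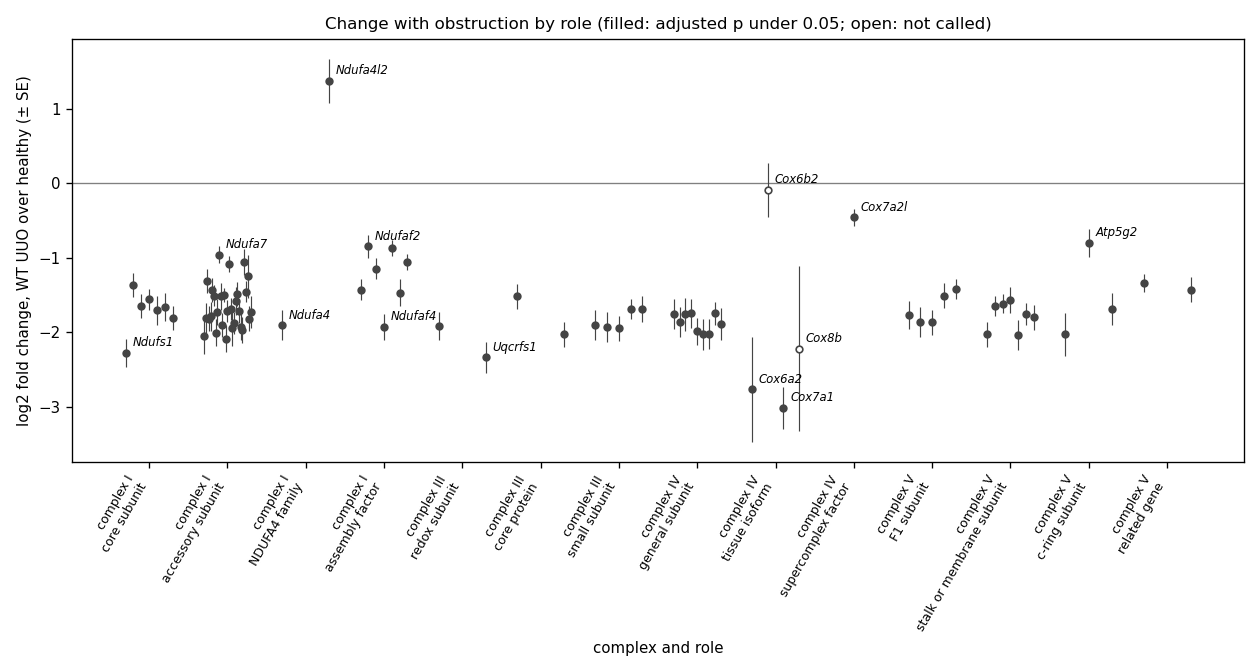
Log2 fold change of WT UUO over healthy kidneys for each of the 85 genes, 1 point a gene with its SE, filled where called, grouped by role within complexes I, III, IV and V. Most genes lie between -2.34 and -0.8, with Cox7a1 (-3.02) and Cox6a2 (-2.77) below that range and Cox7a2l (-0.46), Cox6b2 (-0.09) and Ndufa4l2 (1.37) above it.

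Several subunits exist as paired or tripled genes whose products take the same place in a complex, and here the members of a family differed in how far they moved. The Cox7a family has a form typical of heart and skeletal muscle (Cox7a1, chr7:30184144-30186078, plus strand, mm10), a general form (Cox7a2, chr9:79755361-79759878, minus strand) and Cox7a2l (chr17:83501918-83517330, minus strand), which joins complexes III and IV in supercomplexes. Cox7a1 fell more than any other of the 85 genes (-3.02 ± 0.28, 8.08-fold, adjusted p = 5.28e-07), with 0.745, 0.974 and 1.33 CPM in WT UUO kidneys and 10.1, 7.84 and 6.77 CPM in healthy kidneys. Cox7a2 fell by 2.03 ± 0.21 (adjusted p = 1.23e-06), with 40.6, 46.1 and 46.0 CPM against 191.8, 214.7 and 134.5 CPM. Cox7a2l fell least among the genes called (-0.46 ± 0.11, adjusted p = 0.00215), with 69.5, 55.3 and 63.5 CPM against 90.0, 87.5 and 82.0 CPM, and its sign changed on the all-counts scale. Per kilobase of transcript, Cox7a1 made up 3.0 ± 0.7% of the sum of Cox7a1 and Cox7a2 in WT UUO kidneys (2.44, 2.79 and 3.79%) and 5.94 ± 1.06% in healthy kidneys (6.69, 4.73 and 6.4%), so the general form held most of the level in both (SD, n = 3 each).

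Ndufa4l2 (chr10:127514967-127517154, plus strand) was the gene that rose. This relative of Ndufa4 is known as a target of hypoxia-inducible factor in other settings. It had 4.85, 2.66 and 2.48 CPM in WT UUO kidneys, against 1.34, 1.08 and 1.44 CPM in healthy kidneys (1.37 ± 0.3, 2.58-fold, adjusted p = 0.0013). WT UUO replicate 1 was well above the other WT UUO libraries, yet all 3 were above the healthy ones. Ndufa4 itself (chr6:11900292-11907497, minus strand) fell, with 57.9, 69.7 and 63.8 CPM against 233.6, 303.6 and 180.3 CPM (-1.91 ± 0.2, adjusted p = 1.22e-06). Per kilobase, Ndufa4l2 was 3.37 ± 1.58% of the pair in WT UUO kidneys and 0.375 ± 0.143% in healthy kidneys (SD, n = 3 each). Ndufa4l2 shares bases with Shmt2 on the opposite strand, and the strand setting of the counting is not known here.

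The remaining tissue isoforms of complex IV were rare in kidney. Cox6a2, the heart and skeletal muscle form of subunit 6a, had 0.0592, 0.15 and 0.11 CPM in WT UUO kidneys, from 5, 12 and 9 counts, and 0.528, 1.02 and 0.65 CPM in healthy kidneys, from 26, 50 and 42 counts (-2.77 ± 0.71, adjusted p = 0.00367). Cox8b, the heart and skeletal muscle form of subunit 8, had 9, 10 and 1 counts in WT UUO libraries and 28, 0 and 37 in healthy ones, and the groups overlapped (-2.22 ± 1.11, adjusted p = 0.102). Cox6b2, the testis form of subunit 6b, had 2.37, 2.16 and 2.59 CPM in WT UUO kidneys and 4.0, 1.45 and 2.14 CPM in healthy kidneys (-0.09 ± 0.36, adjusted p = 0.85). Cox6b1, its general partner, fell (-1.75 ± 0.19, adjusted p = 2.37e-06), so that per kilobase Cox6b2 was 3.48 ± 0.598% of the pair in WT UUO kidneys and 1.15 ± 0.563% in healthy kidneys (SD, n = 3 each). The muscle-type isoforms also occur in brown fat, so other tissue in the sample was looked at: the summed adipocyte markers were 40.4 to 137.7 CPM in WT UUO kidneys and 24.9 to 91.5 CPM in healthy kidneys, and the 3 striated muscle markers measured were 0.22 to 1.25 CPM and 0.0619 to 0.183 CPM in the same order. The part of such tissue in the isoform levels was not tested.

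The c-ring of complex V, which turns as protons pass, is made from 3 genes that encode the same mature protein behind different import sequences. Atp5g1 fell by 2.03 ± 0.29 (adjusted p = 3.17e-05), with 23.2, 34.0 and 36.0 CPM in WT UUO kidneys and 144.2, 146.9 and 88.8 CPM in healthy kidneys. Atp5g3 fell by 1.69 ± 0.21 (adjusted p = 7.36e-06), with 60.4, 71.6 and 71.1 CPM against 249.5, 228.1 and 179.3 CPM. Atp5g2 fell less (-0.8 ± 0.19, adjusted p = 0.00239), with 14.2, 12.1 and 11.8 CPM against 26.3, 20.4 and 19.7 CPM, and it changed sign on the all-counts scale.

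**Figure D3:**
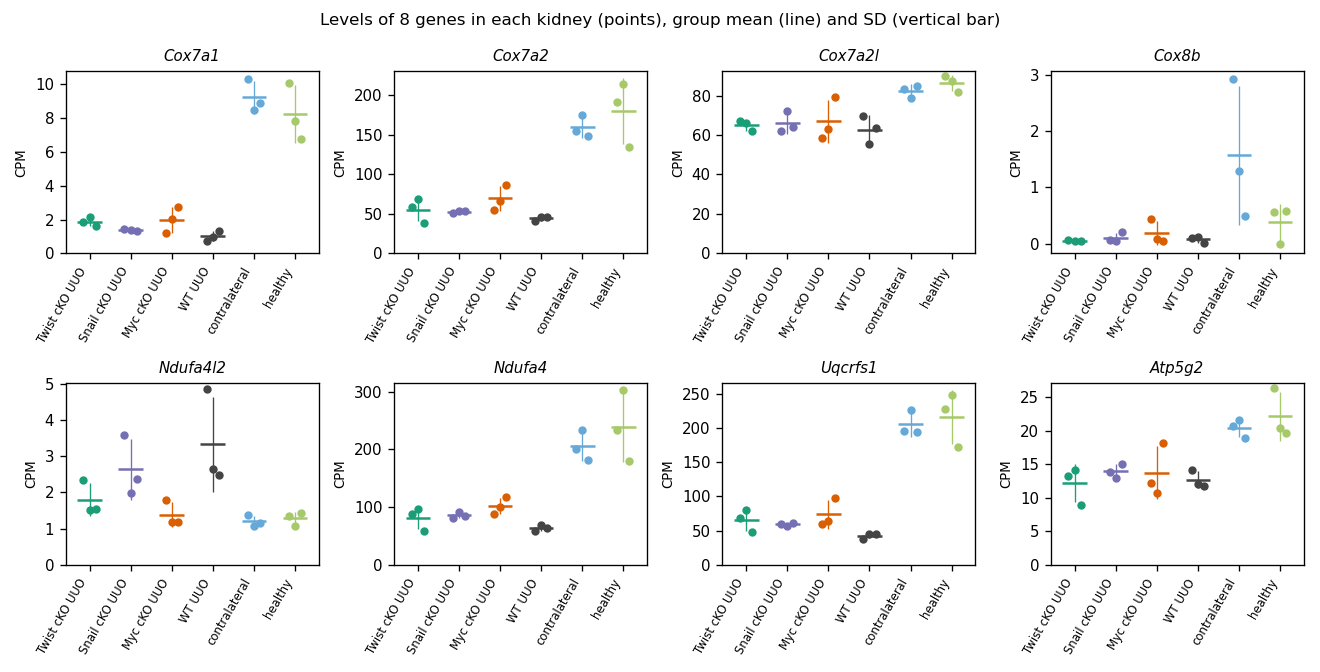
CPM of 8 selected genes in each library by group, on a linear axis, with 1 point a library, a horizontal line at the group mean and a vertical bar for the SD. Cox7a1 in WT UUO kidneys (0.745 to 1.33 CPM) lies below the healthy kidneys (6.77 to 10.1 CPM), Cox7a2l differs least (55.3 to 69.5 CPM in WT UUO and 82.0 to 90.0 CPM in healthy kidneys), and Ndufa4l2 is higher in WT UUO kidneys.

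Per kilobase, the healthy levels of the genes spanned from 1.06 CPM per kb for Cox8b and 1.08 for Cox6a2 to 448.1 for Cox6c, 546.8 for Atp5a1 and 979.7 for Atp5b. Across 84 genes with a transcript length, this level and the log2 fold change of WT UUO over healthy were weakly related (Pearson's r = -0.38, Spearman's rho = -0.39). The genes are not independent, the same healthy libraries stand on both axes, and the values are given as a description.

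Counting could blur some of these genes. A stretch of at least 95% identity to a transcript annotated as a pseudogene was found for 23 of the 85, where reads of 75 bases may be split or shared. Similar loci of other types were not counted. All 23 fell, with a median of -1.8, and among the 62 with no such copy found 59 fell and the median was -1.72. A gene on the opposite strand overlapped 30 of the 85 and a gene on the same strand 10. Atp5sl had no entry under that name in the annotation used. It was not searched for copies or overlaps and stands among the 62.

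The comparison with the unobstructed partner kidney gave nearly the same picture for the same WT UUO libraries. Relative to contralateral kidneys 83 of the 85 genes fell in WT UUO kidneys, where 26.0% of all genes were called lower, and 1 rose, where 27.5% were called higher. The median was -1.58 (2.99-fold lower), against 0.05 over all genes, and by complex it was -1.55 in complex I, -1.85 in III, -1.78 in IV and -1.56 in V. All 83 genes also lay lower in every WT UUO library than in every contralateral one, a separation seen in that direction in 29.8% of all genes. Cox7a1 again had the largest fall of the genes above 1 CPM (-3.18 ± 0.28), with 10.3, 8.48 and 8.89 CPM in contralateral kidneys, followed by Uqcrfs1 (-2.27 ± 0.21), Cyc1 (-2.09 ± 0.19) and Ndufs1 (-2.08 ± 0.19). Ndufa4l2 rose here too (1.48 ± 0.3, adjusted p = 0.000793), against 1.37, 1.08 and 1.15 CPM in contralateral kidneys. Cox8b was called lower in this comparison (-4.24 ± 1.13, adjusted p = 0.00542), from 9, 10 and 1 counts in WT UUO and 171, 70 and 30 counts in contralateral libraries. Cox6b2 was not called (0.08 ± 0.36, adjusted p = 0.871). Because the WT UUO libraries enter both comparisons, the second is not independent of the first.

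Contralateral kidneys were then set against healthy ones, which asks whether the unobstructed partner had itself moved. None of the 85 genes was called by edgeR's quasi-likelihood test, where 2.25% of all genes were, and none by DESeq2 or limma voom. In edgeR's test 2 of the 85 had an unadjusted p under 0.05, against 3662 of all 21107 genes. They were Ndufaf4 (-0.38 ± 0.17) and the complex III subunit Uqcrb (-0.38 ± 0.16). The median was -0.15. Without healthy replicate 3, the lowest healthy library, the median was -0.28 and Ndufaf4 alone was called (-0.58). Uqcrc1 was higher in every contralateral than in every healthy library (242.1, 277.0 and 241.3 CPM against 234.3, 196.7 and 183.3 CPM), as were 12.1% of all genes, and Atp5s and Uqcrb were lower in every one, as were 8.27% of all genes. Summed over complex V the level was 5679 ± 351.1 CPM in contralateral and 5624 ± 905.5 CPM in healthy kidneys, and over complex I it was 3634 ± 272.7 and 3962 ± 738.4 CPM (SD, n = 3 each). Cox8b had the largest difference (2.03 ± 1.01, adjusted p = 0.319) and varied from 0.491 to 2.92 CPM among contralateral and from 0.0 to 0.573 CPM among healthy libraries.

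Because so many genes of the pathway moved together, their promoters were read for short motifs of factors known to drive nuclear genes of the respiratory chain. RefSeq (GRCm38.p6) listed a promoter for 72 of the 85 genes, taken from 250 bases before to 50 bases after the gene start and searched on both strands. The core of the nuclear respiratory factor 1 (NRF1) site, GCGCA, any base, then GCGC, was in 16 of the 72 (22.2%), against 4.8% of all 27025 promoters in the table. AAGATGGCG, which YY1 binds, was in 7 (9.7%, against 1.5%), CCGGAAGT, bound by GABP, in 5 (6.9%, against 4.0%), the E-box CACGTG, which Myc and other factors bind, in 7 (9.7%, against 7.2%), and TCAAGGTCA, bound by oestrogen-related receptors, in 1 (1.4%, against 0.4%). No motif of the 5 was found in 41 of the 72. The first promoter listed was used for each gene. The 27025 promoters include those of genes not kept here, and no share among genes of like expression or base content was computed. A match is a run of letters and not a shown binding site. The 250 bases before the RefSeq start are given for 4 genes, chosen after their values were seen. Ndufb4 has 3 NRF1 matches and Cox6a1 has 2. Atp5h has 1 and also a GABP match read on the other strand, and Cox7a1, the gene with the largest fall, has none. By the GENCODE M21 positions each of the 4 genes starts further upstream. The 3′ end of each stretch, with any match there, lies inside the gene by those positions. Capitals mark the NRF1 matches and, in Atp5h, the 8-base GABP match near the 3′ end. Each is written 5′ to 3′ on the gene's strand, from chr16:37654369-37654618 (minus) for Ndufb4, chr5:115348959-115349208 (minus) for Cox6a1, chr11:115419920-115420169 (minus) for Atp5h and chr7:30183921-30184170 (plus) for Cox7a1.
Ndufb4: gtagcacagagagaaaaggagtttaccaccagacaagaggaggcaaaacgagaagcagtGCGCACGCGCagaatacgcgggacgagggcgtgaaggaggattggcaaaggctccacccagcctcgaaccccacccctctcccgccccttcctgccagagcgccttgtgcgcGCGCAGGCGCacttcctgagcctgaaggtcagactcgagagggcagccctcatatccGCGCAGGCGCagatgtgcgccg
Cox6a1: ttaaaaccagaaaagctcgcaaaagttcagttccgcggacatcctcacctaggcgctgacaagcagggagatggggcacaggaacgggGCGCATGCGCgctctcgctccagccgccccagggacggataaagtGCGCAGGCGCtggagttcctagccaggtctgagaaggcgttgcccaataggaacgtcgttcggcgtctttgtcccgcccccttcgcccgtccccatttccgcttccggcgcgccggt
Atp5h: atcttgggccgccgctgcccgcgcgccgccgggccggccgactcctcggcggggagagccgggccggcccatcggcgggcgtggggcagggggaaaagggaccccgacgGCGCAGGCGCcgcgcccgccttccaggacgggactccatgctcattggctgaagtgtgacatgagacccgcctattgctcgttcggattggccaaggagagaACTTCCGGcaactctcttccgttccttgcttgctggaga
Cox7a1: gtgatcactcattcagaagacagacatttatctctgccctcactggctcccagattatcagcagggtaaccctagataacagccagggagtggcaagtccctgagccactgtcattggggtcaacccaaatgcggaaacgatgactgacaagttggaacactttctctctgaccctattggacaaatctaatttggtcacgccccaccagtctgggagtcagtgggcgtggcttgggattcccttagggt

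All 4 of these genes fell in WT UUO kidneys. Ndufb4, an accessory subunit of complex I, fell in WT UUO kidneys (-1.94 ± 0.25, adjusted p = 1.01e-05), with 9.43, 11.3 and 10.6 CPM against 41.1, 53.2 and 26.1 CPM in healthy kidneys. Cox6a1, the general form of subunit 6a, fell by 1.76 ± 0.22 (adjusted p = 7.17e-06), and Atp5h, the d subunit of the ATP synthase stalk, by 1.65 ± 0.14 (adjusted p = 2.16e-07). The median log2 fold change of WT UUO over healthy was -1.71 in the 16 genes with the NRF1 letters and -1.73 in the 56 without. For Myc cKO UUO over WT UUO the medians were 0.51 and 0.56.

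Genes of the same pathway outside the naming rule moved the same way with obstruction. The 4 subunits of complex II all fell in WT UUO relative to healthy kidneys (median -1.91). Sdhb, its iron-sulfur subunit, had 42.5, 53.1 and 52.3 CPM against 275.0, 294.3 and 197.8 CPM (-2.37 ± 0.2, adjusted p = 2.06e-07). Cycs, cytochrome c, fell by 2.19 ± 0.32 (adjusted p = 3.44e-05) and Cox4i1, the general form of the Cox4 subunit, by 1.67 ± 0.16 (adjusted p = 6.54e-07), while Cox4i2 was not called (0.47 ± 0.71, adjusted p = 0.596). All 13 protein genes of the mitochondrial genome fell, with a median of -3.69 (from -4.35 to -2.79). This fall was larger in size than the -1.73 of the nuclear genes, and the difference between the 2 medians was not tested. Some of the 13, namely mt-Nd3, mt-Nd4l, mt-Co2, mt-Co3, mt-Atp6 and mt-Atp8, were measured at low levels. Their means were 0.0363 to 2.41 CPM in WT UUO and 0.762 to 32.3 CPM in healthy kidneys, so the median of -3.69 rests partly on low levels. mt-Co1, the catalytic subunit of complex IV, had 3727, 4400 and 3996 CPM in WT UUO and 29701, 31693 and 22511 CPM in healthy kidneys. Of 34 other assembly and related factors measured, Atpif1 and Taco1 among them, 31 fell, with a median of -0.88.

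Of 11 regulators of mitochondrial genes, 8 fell, 1 rose and 2 were not called. Ppargc1a, the coactivator that drives mitochondrial biogenesis, had 32.5, 33.2 and 51.1 CPM in WT UUO and 212.1, 149.1 and 156.3 CPM in healthy kidneys (-2.15 ± 0.27, adjusted p = 9.84e-06). Esrra, an oestrogen-related receptor that works with it, fell by 1.73 ± 0.14 (adjusted p = 1.26e-07), and Tfam, which packages and transcribes mitochondrial DNA, by 1.03 ± 0.12 (adjusted p = 4.32e-06). The gene that rose was Pprc1, a relative of Ppargc1a (1.26 ± 0.23, adjusted p = 0.000255), and those not called were Nrf1 (0.23 ± 0.09, adjusted p = 0.0549) and Yy1; these 3 are named after their values were seen.

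The cell types of the tissue moved as well. The 10 proximal tubule markers, none of which was at 0, summed to 840.6 to 2028 CPM in WT UUO kidneys and 13989 to 15557 CPM in healthy kidneys, all 10 fell, and their median log2 fold change was -3.66. The 7 markers of the loop of Henle and distal tubule summed to 853.1 to 1903 CPM and 4394 to 6302 CPM in the same order, and 7 of 7 fell. The 6 pericyte and myofibroblast markers all rose, with sums of 2731 to 5447 CPM in WT UUO kidneys and 159.1 to 237.9 CPM in healthy kidneys, and the macrophage markers measured summed to 331.1 to 488.2 CPM in WT UUO and 54.1 to 72.1 CPM in healthy kidneys. In bulk RNA, fewer tubule cells and less of these transcripts per tubule cell cannot be told apart. The part of cell composition in the fall of the pathway was not tested.

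**Figure D4:**
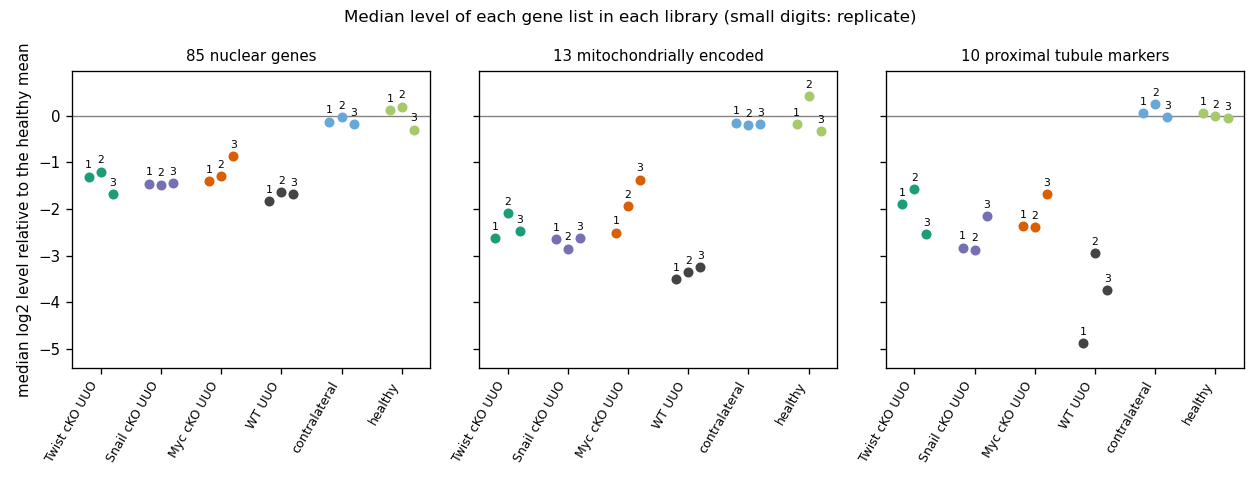
Median log2 level relative to the healthy mean in each library for the 85 nuclear genes, the 13 mitochondrially encoded subunits and the 10 proximal tubule markers, with 1 point a library and groups in columns. All 3 are low in the obstructed groups, with WT UUO replicate 1 lowest for each (-1.83, -3.5 and -4.87) and Myc cKO UUO replicate 3 highest among obstructed libraries for the nuclear and mitochondrially encoded genes (-0.87 and -1.37).

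The knockout groups were each compared with WT UUO kidneys. These 3 comparisons share the WT UUO libraries, so a low WT UUO library raises all of them at once, and they are given side by side without a comparison of their patterns. In Myc cKO UUO kidneys 39 of the 85 genes rose and 1 fell, where 5.28% of all genes were called higher and 6.91% lower. The median was 0.55, with 84 of 85 above zero. In edgeR's test 69 of the 85 had an unadjusted p under 0.05, against 5875 of all 21107 genes. In 67 genes every Myc cKO UUO library was above every WT UUO library, a separation shown in that direction by 15.3% of all genes. On the all-counts scale the median was 0.29 and 74 of 85 were above zero.

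By complex, the rise in Myc cKO UUO kidneys took in 19 of 45 genes of complex I (median 0.48), 5 of 9 of complex III (0.59), 7 of 14 of complex IV (0.67) and 8 of 17 of complex V (0.5). Summed over complex IV, the level was 872.2 ± 205.2 CPM in Myc cKO UUO and 569.1 ± 47.3 CPM in WT UUO kidneys, and over complex V it was 2276 ± 564.9 and 1618 ± 144.0 CPM (SD, n = 3 each). The accessory subunits, which are most of the genes of complex I, accounted for 16 of its 19 calls. The 7 core subunits accounted for 2, while the 7 assembly factors had a median of 0.34.

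Ndufa5, an accessory subunit of the matrix arm of complex I, had 29.3, 36.3 and 43.5 CPM in Myc cKO UUO kidneys, against 15.8, 21.1 and 23.3 CPM in WT UUO kidneys (0.86 ± 0.17, adjusted p = 0.00717). Cox7c, a small subunit of complex IV, had 55.2, 68.5 and 78.1 CPM against 39.6, 43.2 and 39.5 CPM (0.72 ± 0.15, adjusted p = 0.00758). Atp5l, the g subunit of ATP synthase, had 12.0, 12.4 and 16.3 CPM against 8.24, 8.3 and 8.63 CPM (0.69 ± 0.14, adjusted p = 0.00815). For each of these 3 genes the lowest Myc cKO UUO library was above the highest WT UUO library, and they were called in 14 of the 16 settings tried. They were also the 3 genes still called when Myc cKO UUO replicate 3 or WT UUO replicate 1 was left out.

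Further rises were called for Ndufs1 (0.74 ± 0.18, adjusted p = 0.0186), with 89.7, 92.7 and 126.8 CPM in Myc cKO UUO kidneys, for Uqcrfs1 (0.79 ± 0.2, adjusted p = 0.0205), with 59.7, 64.0 and 97.9 CPM, and for Cox6c (0.79 ± 0.18, adjusted p = 0.0122), with 109.3, 146.7 and 176.3 CPM. Replicate 3 was the highest of the 3 libraries in each. Cox7a1 was called (0.97 ± 0.27, adjusted p = 0.0303), although its groups overlapped at 1.21, 2.04 and 2.73 CPM against 0.745, 0.974 and 1.33 CPM. Atp5b was not called (0.47 ± 0.19, adjusted p = 0.129), with 598.7, 606.2 and 938.0 CPM against 445.9, 554.6 and 548.9 CPM, nor were Atp5a1 (0.45 ± 0.18, adjusted p = 0.128) and Cyc1 (0.44 ± 0.18, adjusted p = 0.126). Cox7a2l (0.09 ± 0.11, adjusted p = 0.636), Uqcrc1 (0.14 ± 0.17, adjusted p = 0.633) and Atp5g2 (0.11) had the smallest differences of complexes IV, III and V, and their sign changed on the all-counts scale. The gene that fell was Ndufa4l2 (-1.26 ± 0.3, adjusted p = 0.0163), with 1.79, 1.19 and 1.18 CPM against 4.85, 2.66 and 2.48 CPM, and it was not called without Myc cKO UUO replicate 3 (adjusted p = 0.0726) or without WT UUO replicate 1 (adjusted p = 0.0987).

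The number of calls in the Myc comparison rested on those 2 libraries. Without Myc cKO UUO replicate 3 or without WT UUO replicate 1 it was 3, with medians of 0.36 and 0.5. Without both it was 0 (median 0.32), and with only the 6 libraries of the 2 groups in the fit it was also 0. Proximal tubule markers moved with the genes: they summed to 2974 to 5368 CPM in Myc cKO UUO and 840.6 to 2028 CPM in WT UUO kidneys, and 7 of 10 rose. Pericyte and myofibroblast markers summed to 527.8 to 2373 CPM in Myc cKO UUO and 2731 to 5447 CPM in WT UUO kidneys, and 3 of 6 fell. Complex II rose in 4 of 4 genes (median 0.66), the mitochondrially encoded subunits in 9 of 13 (median 1.52), Cox4i1 rose by 0.53 ± 0.16 (adjusted p = 0.0374) and Ppargc1a by 1.17 ± 0.27 (adjusted p = 0.0129). The part of either cell content in these changes, that of Ndufa4l2 included, was not tested.

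In Twist cKO UUO kidneys 1 gene was called relative to WT UUO, where 2.97% of all genes were called higher and 2.3% lower. It was Atp5s, also known as factor B or distal membrane arm assembly component 2-like, which is related to complex V by name (chr12:69724950-69744660, plus strand), with 7.49, 6.98 and 7.78 CPM against 5.23, 4.43 and 5.95 CPM (0.51 ± 0.12, adjusted p = 0.0291). The call was lost when any 1 Twist cKO UUO library, WT UUO replicate 1 or WT UUO replicate 2 was left out, and with only the 6 libraries of the 2 groups in the fit. WT UUO replicate 3, the WT UUO library with floxed Twist and no Cre, had the highest WT UUO value of Atp5s (5.95 CPM). The part of the floxed allele itself in the Atp5s difference was not tested. The median was 0.33 with 81 of 85 above zero (0.17 and 72 of 85 on the all-counts scale). In edgeR's test 31 of the 85 had an unadjusted p under 0.05, against 4816 of all 21107 genes. In every Twist cKO UUO library 23 were higher, against 15.7% of all genes. Cyc1 (0.63 ± 0.18, adjusted p = 0.0578), Cox7a1 (0.89 ± 0.27, adjusted p = 0.066), Uqcrfs1 (0.61 ± 0.2, adjusted p = 0.0844) and Ndufs1 (0.53 ± 0.18, adjusted p = 0.0998) missed the threshold. Cyc1 had 52.6, 62.1 and 39.3 CPM in Twist cKO UUO kidneys and 29.0, 35.3 and 35.5 CPM in WT UUO kidneys. For these genes the Twist libraries were spread, with replicate 2 highest and replicate 3 lowest, and over the 85 genes replicate 3 had a median of -1.69 relative to healthy, inside the -1.83 to -1.64 of the WT UUO libraries. Without that library the median over WT UUO was 0.49, and Cyc1 was the gene called (adjusted p = 0.0433). Ndufa4l2 was lower in every Twist cKO UUO library (2.34, 1.52 and 1.55 CPM), as were 17.0% of all genes, and was not called (-0.89 ± 0.3, adjusted p = 0.0934). Proximal tubule markers summed to 3067 to 4992 CPM in these kidneys and 7 of 10 rose. Pericyte and myofibroblast markers summed to 1257 to 1519 CPM, below every WT UUO library, and 2 of 6 fell. Among the other pathway genes Sdha (0.63 ± 0.16, adjusted p = 0.0416), Esrra (0.64 ± 0.13, adjusted p = 0.0222) and 4 of 13 mitochondrially encoded subunits rose.

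In Snail cKO UUO kidneys edgeR called none of the 85 genes relative to WT UUO, where it called 0.298% of all genes. DESeq2 and limma voom also called none. In edgeR's test 13 of the 85 had an unadjusted p under 0.05, as did a similar share of all genes (3126 of 21107). The median was 0.24, with 81 of 85 above zero (0.14 and 76 of 85 on the all-counts scale). In 56 genes every Snail cKO UUO library was above every WT UUO library, a separation shown in that direction by 12.8% of all genes. The 3 Snail libraries lay close together, with summed complex IV at 677.0 ± 4.68 CPM in Snail cKO UUO and 569.1 ± 47.3 CPM in WT UUO kidneys (SD, n = 3 each). Uqcrfs1, for example, had 59.4, 56.0 and 61.1 CPM against 38.3, 44.5 and 45.2 CPM (0.46 ± 0.2, adjusted p = 0.289), and Cox7a1 had 1.44, 1.41 and 1.35 CPM against 0.745, 0.974 and 1.33 CPM (0.46 ± 0.27, adjusted p = 0.454). Proximal tubule markers summed to 2161 to 3402 CPM and 1 of 10 rose, and pericyte and myofibroblast markers summed to 1806 to 2652 CPM, against 2731 to 5447 CPM in WT UUO kidneys.

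**Figure D5:**
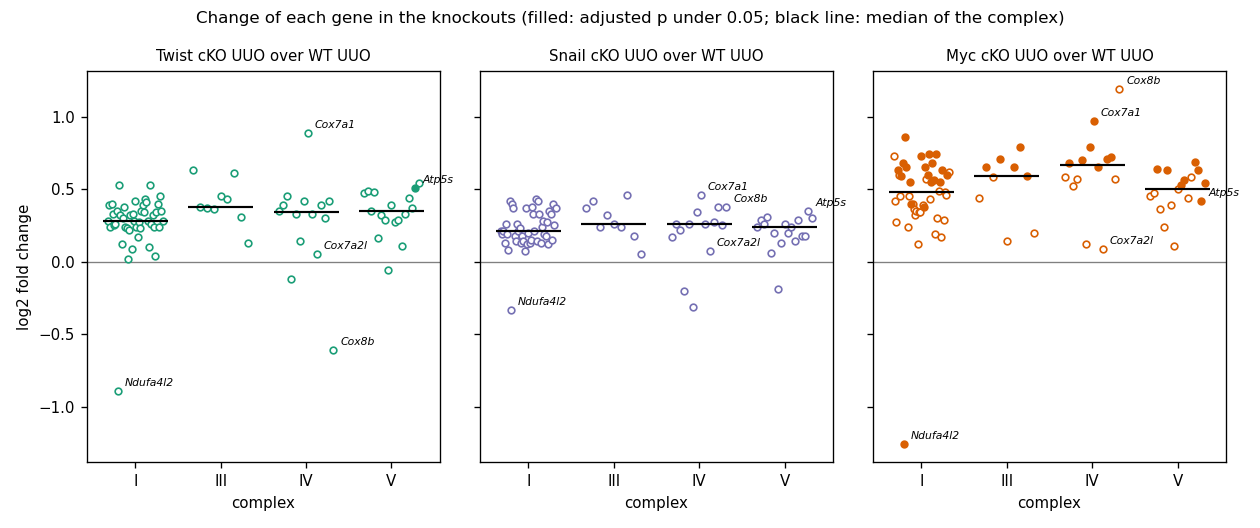
Log2 fold changes of the 85 genes for Twist, Snail and Myc cKO UUO, each over the shared WT UUO libraries, 1 point a gene, in columns by complex, filled where called at an adjusted p under 0.05 and with a line at the median of the complex. Medians of all genes shown are 0.33, 0.24 and 0.55, with 1, 0 and 40 genes called.

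Against contralateral kidneys all knockout groups were low. In Twist cKO UUO kidneys 83 of the 85 genes fell (median -1.3), where 21.3% of all genes were called lower; in Snail cKO UUO kidneys 83 fell (median -1.38), where 22.7% were; and in Myc cKO UUO kidneys 82 fell (median -1.06), where 22.4% were. These comparisons share the contralateral libraries. Cox7a1 fell by 2.29 ± 0.27 in the Twist, 2.72 ± 0.28 in the Snail and 2.21 ± 0.27 in the Myc comparison, and Uqcrfs1 by 1.66 ± 0.2, 1.8 ± 0.2 and 1.48 ± 0.2. Ndufa4l2 rose in Snail cKO UUO kidneys (1.14 ± 0.3, adjusted p = 0.00613), where 23.7% of all genes were called higher, and was not called in the Twist (0.59 ± 0.3, adjusted p = 0.13) or Myc (0.21 ± 0.3) comparison. The genes that were not called lower were Ndufa4l2 and Cox6b2 in each comparison and, in the Myc comparison, also Ndufaf2 (-0.3 ± 0.15, adjusted p = 0.116). Scaled to all counts, the medians were -0.4, -0.43 and -0.28 for Twist, Snail and Myc.

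Direct comparisons between the knockout groups called none of the 85 genes by edgeR. For Twist over Snail cKO UUO the median was 0.09, and 0.171% of all genes were called. In edgeR's test 0 of the 85 had an unadjusted p under 0.05, against 1377 of all 21107 genes. DESeq2 and limma voom also called 0. For Myc over Twist cKO UUO the median was 0.21, and 2.98% of all genes were called. In edgeR's test 6 of the 85 had an unadjusted p under 0.05, against 3694 of all 21107 genes, and DESeq2 and limma voom called 0. For Myc over Snail cKO UUO the median was 0.29, and 2.44% of all genes were called. In edgeR's test 26 of the 85 had an unadjusted p under 0.05, against 3602 of all 21107 genes, and DESeq2 called 3 and limma voom 0. In that last comparison 33 genes were higher in every Myc cKO UUO library than in every Snail cKO UUO library, as were 10.1% of all genes; Atp5l, for example, had 12.0, 12.4 and 16.3 CPM in Myc and 9.31, 9.8 and 9.4 CPM in Snail cKO UUO kidneys (0.51 ± 0.14, adjusted p = 0.0709). The rise called against WT UUO in Myc cKO UUO kidneys is therefore not shown to differ from that of the other knockout groups.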

How the data were processed

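RNA of 18 kidneys was measured with stranded whole-transcriptome libraries and paired reads of 75 bases, per the labels' protocols. The authors deposited raw counts per gene symbol; bcl2fastq 1.8.4, HTSeq, DESeq2 and the build mm10 were used, per the submitters' processing notes, with the strand setting, the aligner and the annotation not given in the sources used here. Of 24 columns in the table, 6 matched no sample and entered no step. Totals were 52.6 to 91.3 M counts per library.

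Groups came from the labels; replicate numbers are in the order of the sample records. Genes with at least 10 counts in at least 3 libraries were kept (21107) and tested in R 4.3.3 with edgeR 4.0.16, in 1 robust quasi-likelihood fit over all libraries (TMM, 1 mean per group, 12 residual degrees of freedom), with adjusted p under 0.05, two-sided. SE is the log2 fold change over the root of the F statistic. DESeq2 1.42.0, limma voom 3.58.1, other scalings and filters, sex and Cre covariates, and leaving out each library were alternatives. Positions came from GENCODE M21 and promoters from RefSeq (GRCm38.p6). The fit was checked on simulated counts for Myc cKO UUO over WT UUO, with changes placed in genes above 1 CPM. Genes were drawn independently, each with 1 mean in all groups apart from the changed genes. False calls from genes that move together, or from 1 library that stands apart, are therefore not covered. The fit recovered 20.9% of 1.5-fold, 71.6% of 2-fold and 90.9% of 4-fold changes, with 6 false calls among 21107 genes. A gene that was not called is therefore not shown to be unchanged.

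The genes and lists were chosen with earlier results of these data known. Named genes are, per comparison, the largest rises and falls within each complex above 1 CPM, subunits of fixed roles, the isoform families, the most changed assembly factors and members called unlike most; others are marked in the text. Count-based error covers counting only where single counts are given. Values of 1 subunit are not reported here.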

Additional observations from a re-analysis of the deposited data

How the results depend on the processing

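On the TMM scale the number of calls in the obstruction comparisons moved little. Libraries were left out 1 at a time, each only in the comparisons of its own group. This gave 83 to 84 calls of the 85 genes for WT UUO over healthy and 84 for WT UUO over contralateral. For Twist and for Snail cKO UUO over contralateral it gave 82 to 83, and for Myc cKO UUO over contralateral 79 to 81. It gave 0 to 1 calls for contralateral over healthy, 0 to 2 for Twist cKO UUO over WT UUO (0 without WT UUO replicate 1 or 2 or Twist cKO UUO replicate 1 or 2, 2 without WT UUO replicate 3), 3 to 52 for Myc cKO UUO over WT UUO and 0 to 2 for Myc over Snail cKO UUO. For Twist cKO UUO over WT UUO, DESeq2 called 10 and a fit with sex as a covariate 5, against 1. For Myc cKO UUO over WT UUO, a fit of only the 2 groups called 0 against 40, and so did leaving out WT UUO replicate 1 and Myc cKO UUO replicate 3 together, which was chosen after seeing the data. For Myc over Snail cKO UUO, DESeq2 called 3 and the sex covariate 1, against 0. The causes were not tested, apart from the fewer libraries in the fits that leave some out. Scaling to all counts, also chosen after seeing the data, moved the obstruction medians by 0.79 to 1.08. It left 76 of 85 genes below zero for WT UUO over healthy, 75 for WT UUO, 74 for Twist, 72 for Snail and 71 for Myc cKO UUO over contralateral, and genes called lower on the TMM scale were among those that changed sign.

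Under the other alternatives, of 6847 values for single genes named in a comparison, 104 lost the threshold, 69 of them in Myc cKO UUO over WT UUO, 26 gained it, 0 that were called changed sign, and 143 called in neither fit did. Cox8b in WT UUO over healthy passed with the Cre covariate (-4.15) and without healthy replicate 2 (-2.79). No paired analysis was possible because the labels number no replicates and do not say which kidneys share an animal. Depth limits Cox8b and Cox6a2, which rest on few counts.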

Other observations

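The mitochondrially encoded complex I subunit mt-Nd3, measured at a low level, was called higher over WT UUO in Snail cKO UUO kidneys. It had 3.16, 2.62 and 3.44 CPM there, against 0.166, 0.237 and 0.232 CPM in WT UUO kidneys (log2 fold change 3.85 ± 0.48 SE, adjusted p = 0.00253, edgeR's quasi-likelihood test). Healthy kidneys had 3.78, 5.96 and 3.28 CPM. The mean was 0.558 ± 0.169 CPM in Twist cKO UUO and 0.67 ± 0.506 CPM in Myc cKO UUO kidneys (SD, n = 3 each). The healthy mean was 4.34 CPM, against 8780 CPM for mt-Nd1 and 27968 CPM for mt-Co1. Mean levels in Snail cKO UUO and WT UUO kidneys were 1575 and 1057 CPM for mt-Nd1, and 5823 and 4041 CPM for mt-Co1. Strain and knockout cannot be told apart for the Snail group, and the cause of the mt-Nd3 difference was not tested. In the same comparison none of the 85 nuclear genes was called by edgeR, DESeq2 or limma voom. In edgeR's test 13 of the 85 had an unadjusted p under 0.05, as did 3126 of all 21107 genes.

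The regulator Ppargc1b, a relative of Ppargc1a chosen here after its values were seen, rose in Twist cKO UUO (0.96 ± 0.15, adjusted p = 0.0126) and in Myc cKO UUO kidneys (0.49 ± 0.15, adjusted p = 0.043) relative to the shared WT UUO kidneys. In Snail cKO UUO kidneys the difference was 0.67 ± 0.15 and was not called (adjusted p = 0.0696), with 8.83 ± 1.97 CPM there and 5.56 ± 0.328 CPM in WT UUO kidneys (SD, n = 3 each).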
